A study of Homo sapiens with 15 samples.

Results

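The genes described here are HMOX1 and 8 further genes of the oxidative stress response governed by the transcription factor NRF2: NQO1, GCLM, GCLC, TXNRD1, SRXN1, NFE2L2 (the gene of NRF2 itself), KEAP1 and BACH1. They were selected on their measured levels in the libraries of this study, by taking the entries with these symbols from the expression tables of the MM.1S and RPMI8226 cell lines, and they are 9 of 20468 genes in each table. Because the levels that chose them are the levels described, their values, differences and standard errors are given as a description, with no p-value or call for any of the 9, although they were part of the fits and counts over all genes.

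NRF2 is held in the cytoplasm by KEAP1, which presents it to a CUL3 ubiquitin ligase for degradation. When reactive cysteines of KEAP1 are modified by oxidants or electrophiles, NRF2 accumulates, pairs with a small MAF protein and activates genes that carry an antioxidant response element; BACH1, a repressor that heme inactivates, competes for the same elements and restrains HMOX1 in particular. Plasma cells and multiple myeloma (MM) cells secrete large amounts of disulfide-bonded antibody and are known for a heavy load of oxidative and protein folding stress.

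RNA-Seq was performed on MM.1S and RPMI8226, human MM cell lines, under 3 conditions: monoculture (MONO), the upper transwell of a coculture with the human bone marrow stromal cell line HS5 (TSW), where the chambers share soluble factors, and the lower chamber (CO), where MM cells lay on HS5 cells. The culture lasted 48 h, and cells were sorted by flow cytometry as CD90-CD38+, a gate meant to leave HS5 cells out. There were 3 libraries of each condition for MM.1S and 2 for RPMI8226, 15 in all. Nothing in the labels says that replicates came from separate cultures, so p-values measure only the spread between these libraries, which may be technical. Levels are in RPKM, which sets the number of paired-end tags (PETs) of a gene against the length of its transcript and the size of the library, and the steps between low values gave 9.01 M to 19.1 M PETs per library. A gene was tested where its mean over the libraries of a line was at least 1 RPKM, and called where limma gave a Benjamini-Hochberg adjusted p under 0.05 over all genes tested and a fold change above 1.5 on the log2(RPKM + 1) scale, which understates the change of low genes. Each line has its own normalized table; every test stayed inside a line, and no difference between lines was tested. In these bulk libraries fewer cells that express a gene and less RNA of it per cell cannot be told apart.

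The libraries carried the transcripts of plasma cells. Of 9 plasma cell markers, 9 reached 1 RPKM in every MM.1S library and 8 in every RPMI8226 library, with JCHAIN the most abundant, whereas none of 3 markers of earlier B cells did in any library. Of 27 stromal markers, FN1 was between 1678 and 4309.9 RPKM in all RPMI8226 libraries, MONO included, and was set apart as a transcript of that line. The summed RPKM of the other 26 was 28.9, 30.7 and 31.5 in MM.1S MONO, 21.1, 20.5 and 21.8 in TSW, and 163, 176 and 149.7 in CO. In RPMI8226 the sum was 58.9 and 63.6 in MONO, 28.4 and 30.9 in TSW, and 121 and 165 in CO. The CO libraries of both lines thus stood above all others of their line in this sum, led by MMP1 at 41.0 to 46.9 RPKM in MM.1S and 35.1 and 53.2 RPKM in RPMI8226, with no PET of MMP1, COL1A2, COL3A1, MMP2 or TFPI2 in the 10 MONO and TSW libraries. Of all 27 markers, 21 in MM.1S and 23 in RPMI8226 were higher in every CO library than in every TSW library. TAGLN and IGFBP3 overlapped between CO and TSW in MM.1S, POSTN was at 0 in every library, and COL6A3, TIMP3 and ACTA2 were at or near 0 in CO. Not every marker was highest in CO: CAV1 was at 12.7 to 14.6 RPKM in MM.1S CO and 17.4 to 17.7 in MONO, and at 19.5 and 20.5 in RPMI8226 CO and 28.1 and 28.6 in MONO, and IGFBP3 was at 8.97 and 10.1 in RPMI8226 CO and 26.4 and 30.6 in MONO.

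The library MM.1S MONO 1 stood apart from the other libraries of its line. It had the fewest PETs, 9.01 M, and its values deviated from the mean of the other MM.1S MONO libraries by a median of 0.30 on the log2 scale for 2003 genes with transcripts under 2000 bases and by -0.32 for 3128 genes with transcripts of 5000 bases or more. Several MM.1S differences are given with and without it.

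HMOX1 encodes heme oxygenase 1, the inducible enzyme that cleaves heme to biliverdin, carbon monoxide and iron. Its RPKM in RPMI8226 was 141 and 148 in MONO, 5.87 and 6.24 in TSW, and 4.78 and 4.95 in CO. The RPMI8226 MONO libraries were far above the others, CO was the lowest, and no conditions overlapped. In MM.1S the RPKM of HMOX1 was 52.4, 51.3 and 54.4 in MONO, 72.3, 56.2 and 59.7 in TSW, and 96.3, 144 and 109 in CO. Here the order was the opposite one, with MONO lowest and CO highest, and again the ranges did not overlap, although TSW 2 lay close to MONO. By means, HMOX1 in RPMI8226 was 23.9-fold lower in TSW than in MONO and 29.7-fold lower in CO, differences of -4.37 and -4.63 in log2(RPKM + 1) with a standard error (SE) of 0.08. Ordered by this difference, HMOX1 was the 3rd lowest of the 10319 genes tested in TSW and the 2nd lowest in CO. The values rested on 2802 and 3491 PETs in MONO against 124 to 178 in the cocultures, so the low values did not rest on a few PETs. In MM.1S, HMOX1 was 1.19-fold higher in TSW than in MONO (0.24, SE 0.14) and 2.21-fold higher in CO (1.11, SE 0.14). The difference between CO and TSW was 0.87 (SE 0.14) in MM.1S, the 34th highest of 10153 genes, stromal transcripts included. In RPMI8226 the difference between CO and TSW was -0.27 (SE 0.08), or -0.10 with a trend with transcript length removed. Leaving out MM.1S MONO 1 left the differences from MONO at 0.24 and 1.11, but the first was 0.13 without TSW 1, and the second 0.95 without CO 2.

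The stromal transcripts of the CO libraries were set beside HMOX1. In MM.1S, the mean of HMOX1 in CO was 53.8 RPKM above that in TSW, in libraries where the most abundant stromal marker, MMP1, was at 41.0 to 46.9 RPKM, and the part of stromal RNA in this difference was not tested. In RPMI8226 CO, MMP1 was at 35.1 and 53.2 RPKM and HMOX1 at 4.78 and 4.95 RPKM. None of the libraries is of HS5 alone, so the level of HMOX1 in HS5 cells beside either line was not measured. The stromal load of the lines is not equal by every marker: COL1A2 was at 10.2 to 13.4 RPKM in MM.1S CO and at 4.05 and 5.85 RPKM in RPMI8226 CO, and COL1A1 at 4.84 to 6.37 RPKM against 0.940 and 1.41. The bars of HMOX1 and of the 26 markers show the stromal sum at 121 to 176 RPKM in the CO libraries of both lines, and show that within MM.1S HMOX1 was highest in CO, while within RPMI8226 it was lowest in CO.

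**Figure D1:**
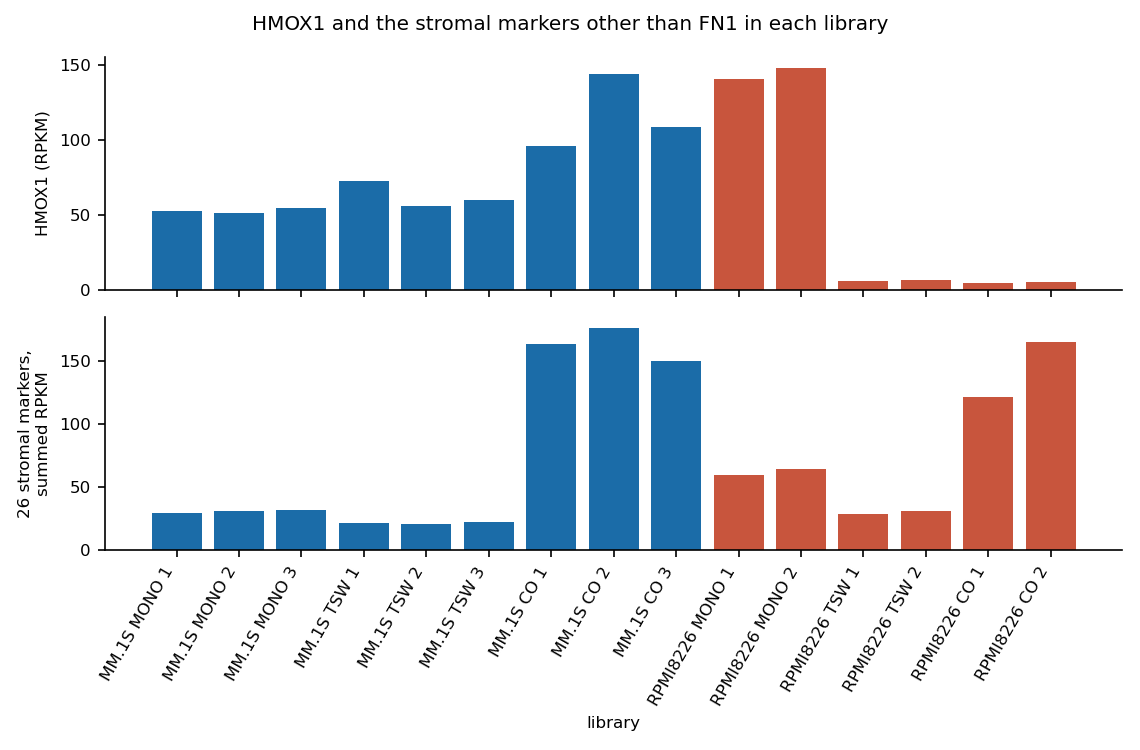
RPKM of HMOX1 (upper panel) and summed RPKM of 26 stromal markers (lower panel) in each of the 15 libraries; each bar is 1 library and both axes start at 0. HMOX1 was at 141 and 148 RPKM in RPMI8226 MONO and at 4.78 to 6.24 RPKM in TSW and CO, while the stromal sum was 121 to 176 in the CO libraries of both lines.

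NQO1 encodes a quinone reductase that is a standard readout of NRF2. In RPMI8226 its RPKM was 31.4 and 33.3 in MONO, 8.86 and 8.51 in TSW, and 5.52 and 6.78 in CO. In MM.1S it was 11.1, 10.4 and 9.92 in MONO, 13.7, 11.3 and 11.8 in TSW, and 9.97, 14.9 and 13.0 in CO. NQO1 was thus high in RPMI8226 MONO alone, with all conditions of that line apart, and in MM.1S the CO and MONO ranges overlapped. In RPMI8226 it was 3.73-fold lower in TSW (-1.78, SE 0.10) and 5.26-fold lower in CO (-2.23) than in MONO, and in MM.1S the differences were 0.21 and 0.23 with an SE of 0.13. Without TSW 1 the first was 0.13, and the second was 0.38 without CO 1 and 0.11 without CO 2.

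GCLC and GCLM are the catalytic and modifier subunits of glutamate-cysteine ligase, the first and limiting step of glutathione synthesis. For GCLC, RPMI8226 gave 25.1 and 25.9 RPKM in MONO, 12.1 and 12.4 in TSW, and 12.8 and 11.7 in CO. In MM.1S, GCLC was at 11.5, 14.2 and 14.8 RPKM in MONO, 11.3, 10.9 and 12.5 in TSW, and 13.1, 12.6 and 12.5 in CO. GCLC was 2.08-fold lower in both RPMI8226 cocultures than in MONO, and these overlapped with each other, and the MM.1S ranges of both cocultures overlapped with MONO through MM.1S MONO 1 alone. The MM.1S differences from MONO were -0.20 and -0.07, and they were -0.31 and -0.17 without that library and -0.14 and -0.01 without MONO 3. GCLM in RPMI8226 was at 12.1 and 11.5 RPKM in MONO, 8.51 and 8.39 in TSW, and 9.67 and 8.71 in CO. GCLM in MM.1S was at 4.46, 4.67 and 5.97 RPKM in MONO, 5.86, 5.51 and 6.34 in TSW, and 6.10, 6.24 and 6.82 in CO. The modifier subunit was thus 1.40-fold lower in RPMI8226 TSW and 1.28-fold lower in CO without overlap, and in MM.1S the CO libraries were all above MONO, by 0.30 (SE 0.11), or 0.23 without MM.1S MONO 1, while TSW overlapped with MONO. Its levels were below those of the catalytic subunit in every library.

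TXNRD1 encodes the cytosolic thioredoxin reductase, a selenoprotein that keeps thioredoxin reduced, and SRXN1 encodes sulfiredoxin, which repairs overoxidized peroxiredoxins. TXNRD1 in RPMI8226 was at 83.8 and 78.6 RPKM in MONO, 51.6 and 52.9 in TSW, and 45.5 and 45.6 in CO. TXNRD1 in MM.1S was at 66.7, 95.0 and 95.8 RPKM in MONO, 105, 96.6 and 101 in TSW, and 97.7, 109 and 113 in CO. TXNRD1 was 1.55-fold and 1.78-fold lower in RPMI8226 TSW and CO than in MONO; in MM.1S, where all coculture libraries lay above MONO by a small margin, it was higher in both cocultures, by 0.25 and 0.33 (SE 0.13), but by 0.08 and 0.16 without MM.1S MONO 1, its lowest library. The RPKM of SRXN1 in RPMI8226 was 41.6 and 43.1 in MONO, 36.5 and 37.7 in TSW, and 28.5 and 26.4 in CO. The RPKM of SRXN1 in MM.1S was 32.6, 38.0 and 36.3 in MONO, 49.4, 47.7 and 51.3 in TSW, and 37.6, 49.4 and 48.6 in CO. SRXN1 was 1.39-fold higher in MM.1S TSW (0.46, SE 0.11), with the CO library of 37.6 RPKM inside the MONO range, and in RPMI8226 it was 1.14-fold lower in TSW and 1.54-fold lower in CO, differences of -0.19 and -0.61 that were -0.07 and -0.41 with the length trend removed. SRXN1 is also the only gene of the 9 with a pseudogene named after it in RefSeq, so PETs shared with that copy make its level less certain.

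Of the regulators, NFE2L2 itself was at 12.5 and 12.7 RPKM in RPMI8226 MONO, 18.8 and 17.6 in TSW, and 20.4 and 19.7 in CO. In MM.1S, NFE2L2 was at 19.0, 24.7 and 25.3 RPKM in MONO, 28.0, 29.0 and 30.5 in TSW, and 27.2, 29.0 and 26.5 in CO. The mRNA of NRF2 was thus lowest in MONO in both lines, without overlap, while HMOX1, NQO1 and GCLC were highest in MONO in RPMI8226. NFE2L2 was 1.45-fold and 1.59-fold higher in RPMI8226 TSW and CO, and 1.27-fold and 1.20-fold higher in MM.1S, where the differences of 0.34 and 0.26 (SE 0.11) became 0.21 and 0.13 without MM.1S MONO 1. NRF2 is controlled mainly by the stability of the protein, which was not measured here.

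KEAP1, the adaptor that marks NRF2 for degradation, was at 45.5 and 48.4 RPKM in RPMI8226 MONO, 38.1 and 41.1 in TSW, and 30.5 and 32.9 in CO. In MM.1S it was at 53.0, 56.1 and 43.9 RPKM in MONO, 41.6, 39.9 and 38.8 in TSW, and 30.3, 40.0 and 35.6 in CO. KEAP1 was lower in both cocultures of both lines with every library below MONO, by 1.27-fold and 1.45-fold in MM.1S TSW and CO. In RPMI8226 it was lower by 1.19-fold and 1.48-fold, where the differences of -0.24 and -0.55 became -0.13 and -0.39 with the length trend removed. Many genes differed more: KEAP1 was the 3916th and 2509th lowest of 10319 in RPMI8226 TSW and CO. In MM.1S it was the 1447th and 679th lowest of 10153. BACH1 in RPMI8226 was at 11.5 and 11.4 RPKM in MONO, 28.1 and 24.5 in TSW, and 34.5 and 32.4 in CO. BACH1 in MM.1S was at 4.28, 10.2 and 10.2 RPKM in MONO, 10.9, 12.2 and 12.8 in TSW, and 13.1, 12.1 and 13.0 in CO. The repressor was 2.30-fold higher in RPMI8226 TSW and 2.93-fold higher in CO (1.13 and 1.47, SE 0.08), in the line and the libraries where HMOX1 was low. In MM.1S, BACH1 differed from MONO by 0.57 and 0.65 (SE 0.24), with the lowest value in MM.1S MONO 1, and by 0.21 and 0.29 (SE 0.08) without that library. HMOX1 was also higher than MONO in these MM.1S cocultures, by 0.24 and 1.11, and a link between BACH1 and HMOX1 was not tested.

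**Figure D2:**
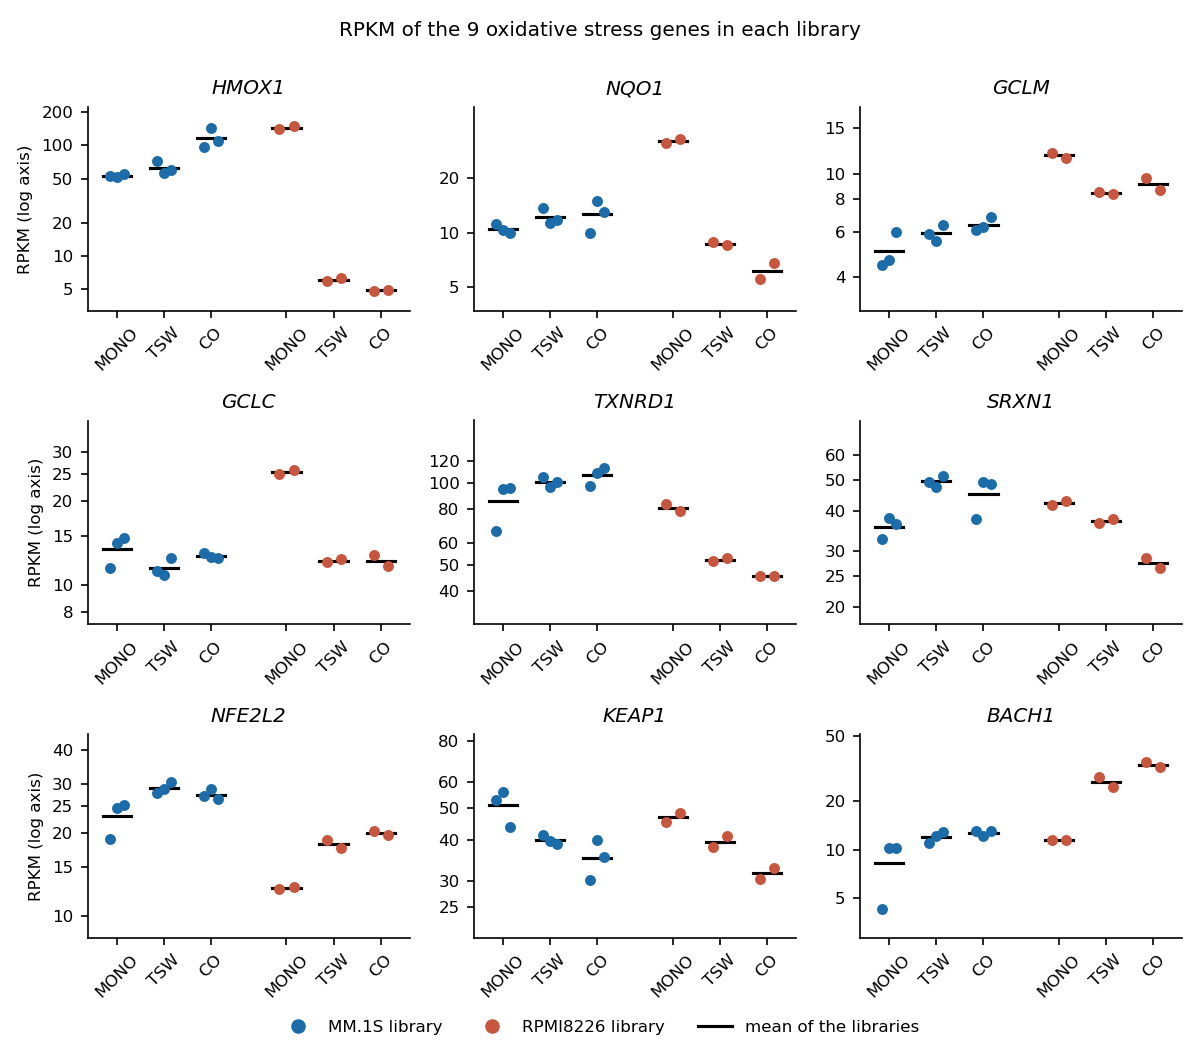
RPKM of each of the 9 genes (log axis) in the MONO, TSW and CO libraries of MM.1S and RPMI8226; each point is 1 library and each bar the mean of its condition. HMOX1 and NQO1 were highest in RPMI8226 MONO, at means of 145 and 32.4 RPKM, and BACH1 in RPMI8226 CO, at 33.5 RPKM.

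Between the conditions of RPMI8226, the order of the levels, which are per length of transcript, changed most for HMOX1. In RPMI8226 MONO the mean of HMOX1, 145 RPKM (SD 5.01), was the highest of the 9, followed by TXNRD1 at 81.2, KEAP1 at 46.9 and SRXN1 at 42.3, and BACH1 was the lowest at 11.4. In RPMI8226 CO the order began with TXNRD1 at 45.6 and BACH1 at 33.5, which overlapped with KEAP1 at 31.7, and ended with HMOX1 at 4.87 RPKM. In MM.1S MONO, TXNRD1 led at 85.8 RPKM (SD 16.5), HMOX1 at 52.7 (SD 1.58) overlapped with KEAP1 at 51.0 (SD 6.33), and GCLM had the lowest mean, 5.03, overlapping with BACH1 at 8.22. In MM.1S CO, HMOX1 at 117 RPKM (SD 24.9) overlapped with TXNRD1 at 107 (SD 7.88).

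**Figure D3:**
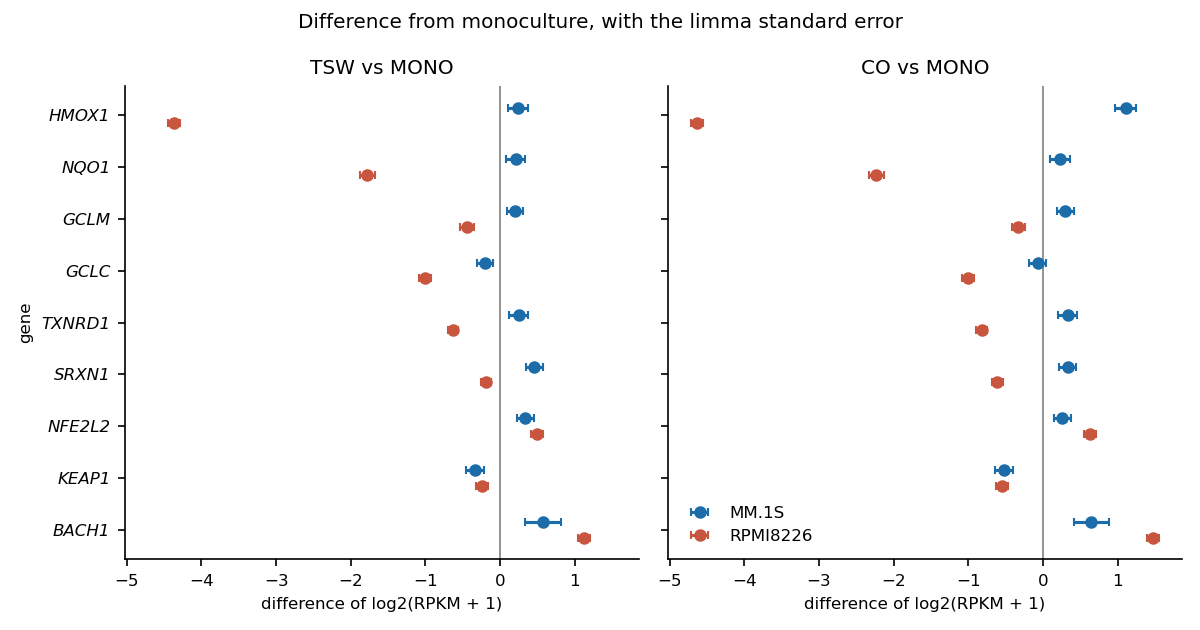
Differences of log2(RPKM + 1) from monoculture for the 9 genes in TSW and CO, with the limma standard error as bars; colours mark the cell line, and 0 is no difference. In RPMI8226, HMOX1 lay at -4.37 and -4.63 and BACH1 at 1.13 and 1.47, while in MM.1S HMOX1 lay at 0.24 and 1.11.

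The number of genes that differed over the whole tables sets the scale for these values. In RPMI8226, 3352 of 10319 genes tested were called in TSW against MONO, 32.5%, of which 14.5% of all tested were higher and 17.9% lower. In CO against MONO the calls were 39.3%, with 16.4% higher and 22.9% lower, and in CO against TSW 4.29%, with 1.90% higher and 2.39% lower. In MM.1S, of 10153 genes tested, 10.6% were called in TSW against MONO (6.48% higher, 4.16% lower), 11.8% in CO against MONO (7.13% higher, 4.65% lower) and 0.414% in CO against TSW (0.374% higher, 0.0394% lower). This last count, 38 higher and 4 lower, became 5 and 2 of 7278 genes with a mean of at least 5 RPKM and 128 and 6 of 16587 with no filter. With 1 library left out it was 24 and 4 without MM.1S CO 2, 26 and 2 without CO 1, and 45 and 8 without MONO 1. Stromal transcripts were not removed from the genes tested, whereas the paper left out signature genes of stromal cells. MMP1, for example, was at 41.0 to 46.9 RPKM in MM.1S CO and at 0 in TSW. The part of stromal RNA in the CO counts of either line was not tested. The splits of calls in RPMI8226 depended on the scaling. In TSW against MONO, 1500 higher and 1852 lower became 1710 and 1539 after median-of-ratios scaling and 1735 and 1486 with the length trend removed, and in CO against MONO, 1693 and 2363 became 1996 and 1929, and 2026 and 1776. In CO against TSW, 196 higher and 247 lower became 232 and 198 after median-of-ratios scaling, 249 and 173 after quantile normalization, 261 and 97 with the length trend removed, and 388 and 331 without TSW 1, but 201 and 333 without CO 2. All comparisons with MONO in a line share the same MONO libraries. Since the 9 genes were chosen from these contrasts, nothing is read from their number among the calls. The same holds for conditions of the 9 that did not overlap, as the share of all genes without overlap is not given here.

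Promoter windows of RefSeq on GRCh38.p14, from 250 bases before to 50 bases after each transcript start, were searched on both strands for TGACNNNGC, the core of the antioxidant response element. Of the 9 genes 8 matched an entry, all but HMOX1, with 13 windows, and 4 windows of 3 genes held the letters: GCLM, TXNRD1 and KEAP1. Over all windows of the table the share was 13.3%, 4687 of 35116. The match is a description of letters and not of a bound site. For each of these 3 genes, the first window with the letters is shown, as these carry them among the genes described, beside that of ME1, an NADPH-producing enzyme from the lists below. They lie at chr1:93909381-93909680 (minus strand, GCLM), chr12:104215529-104215828 (plus strand, TXNRD1), chr19:10502722-10503021 (minus strand, KEAP1) and chr6:83431002-83431301 (minus strand, ME1), and each is written 5′ to 3′ on the strand of its gene, with the 9 letters of a match in capitals. A match on the opposite strand appears as its reverse complement.
GCLM: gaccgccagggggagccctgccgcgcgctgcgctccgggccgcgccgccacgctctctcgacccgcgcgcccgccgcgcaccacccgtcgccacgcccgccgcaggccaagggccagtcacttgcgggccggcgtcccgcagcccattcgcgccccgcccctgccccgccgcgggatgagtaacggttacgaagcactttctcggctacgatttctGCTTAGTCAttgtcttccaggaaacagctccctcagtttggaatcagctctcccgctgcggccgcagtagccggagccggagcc
TXNRD1: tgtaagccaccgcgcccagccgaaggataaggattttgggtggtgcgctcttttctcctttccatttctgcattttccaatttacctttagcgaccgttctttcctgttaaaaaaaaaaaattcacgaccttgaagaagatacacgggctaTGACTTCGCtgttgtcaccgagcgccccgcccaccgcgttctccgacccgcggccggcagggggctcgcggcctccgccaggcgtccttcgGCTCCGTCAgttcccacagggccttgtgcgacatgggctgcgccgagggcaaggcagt
KEAP1: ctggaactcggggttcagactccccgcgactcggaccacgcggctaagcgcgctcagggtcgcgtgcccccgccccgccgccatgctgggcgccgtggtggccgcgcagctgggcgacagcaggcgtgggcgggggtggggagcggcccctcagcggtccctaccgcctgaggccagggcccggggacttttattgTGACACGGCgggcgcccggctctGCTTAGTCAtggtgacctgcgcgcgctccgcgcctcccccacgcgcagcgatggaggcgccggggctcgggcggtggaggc
ME1: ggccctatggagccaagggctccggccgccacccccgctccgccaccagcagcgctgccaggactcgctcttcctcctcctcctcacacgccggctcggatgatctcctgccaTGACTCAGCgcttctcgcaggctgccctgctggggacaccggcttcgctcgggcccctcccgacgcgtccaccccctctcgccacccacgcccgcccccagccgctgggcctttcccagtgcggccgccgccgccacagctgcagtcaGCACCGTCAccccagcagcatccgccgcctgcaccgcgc
The first base of the match lay at -34 from the start in GCLM, at -99 and -8 in TXNRD1, at -54 and -31 in KEAP1 and at -137 and 12 in ME1. The other TXNRD1 window, chr12:104286782-104287081, which is not shown, held TGACAAAGC at -102 on the opposite strand. GCLM and KEAP1 shared the letters TGACTAAGC, both on the opposite strand. The match at -137 in ME1, TGACTCAGC, also contains TGACTCA, the letters known for AP-1 factors. ME1, which rose in MM.1S, is 1 example, and PGD, which fell in RPMI8226, also held the letters. Over the lists below, the share of matched genes with the letters ran from 6.67% (thioredoxin and peroxiredoxin) to 57.1% (superoxide and peroxide removal), beside 16.1% of all genes. A link between the letters and a change in level was not tested.

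Further genes of the pathway were taken from 7 lists of 144 genes, none of them among the 9, of which 143 were found, and GSTT1 was not analysed here. The lists, like the 9 genes, were chosen with earlier results of these data known. The calls, p-values and shares of list genes are therefore not independent of the data and describe these libraries only. In MM.1S, 115 of them were tested, and 17 were called in TSW against MONO, 14 higher and 3 lower (14.8%, beside 10.6% of all genes tested). In CO against MONO 15 were called in MM.1S, 12 higher and 3 lower (13.0%, beside 11.8%), and the split was 13 and 6 after quantile normalization. In RPMI8226, 38 of 114 tested were called in TSW, 14 higher and 24 lower (33.3%, beside 32.5%), but 18 higher and 17 lower after median-of-ratios scaling and 20 and 17 with the length trend removed. In RPMI8226 CO, 49 were called, 13 higher and 36 lower (43.0%, beside 39.3%), or 17 and 28 with the length trend removed. The median difference over the lists was 0.02 and -0.01 in MM.1S TSW and CO, beside 0.01 over all genes, and -0.14 and -0.28 in RPMI8226, beside -0.08 and -0.09. These shares lay near those of all genes. Without MM.1S MONO 1 the calls were 18 in TSW and 17 in CO, and without MM.1S MONO 3 they were 18 in TSW and 24 in CO, 15 higher and 9 lower. For every list gene called below, the libraries of the compared conditions did not overlap. For most of them this was a condition for being named, so it is no support for the calls.

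**Figure D4:**
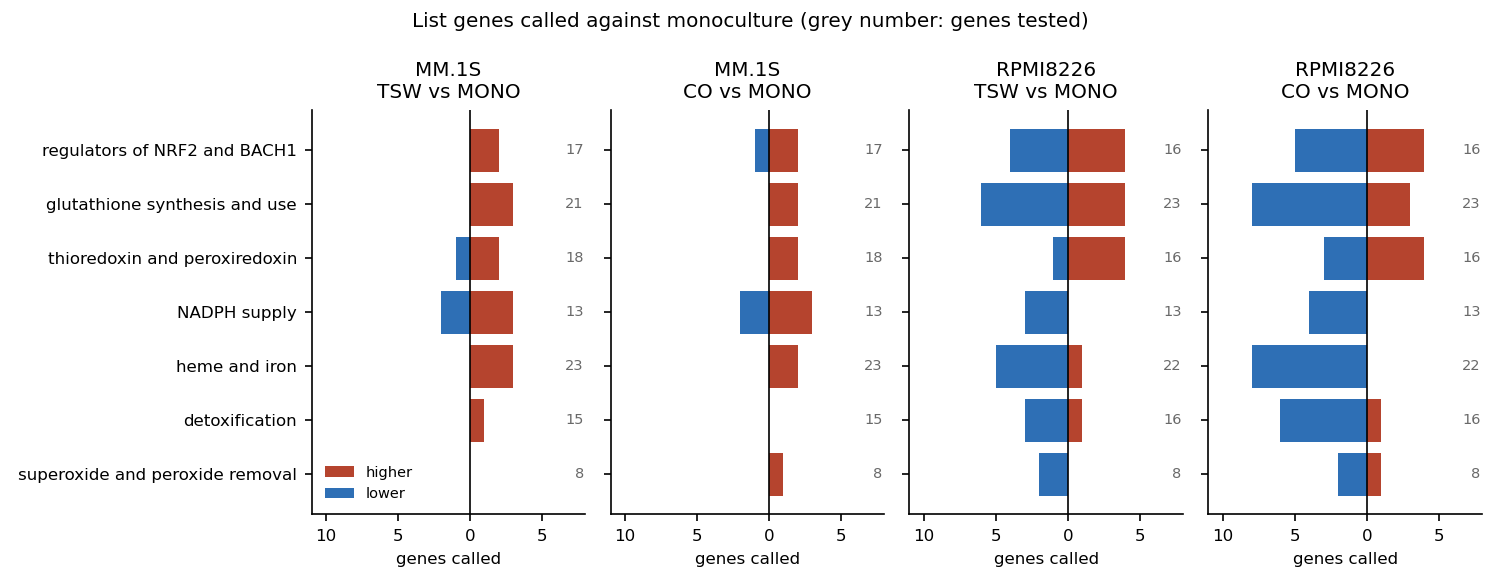
Number of list genes called against monoculture in each of the 7 lists, by cell line and coculture; bars to the right are genes that were higher, bars to the left genes that were lower, and the grey number is how many were tested. Over the 7 lists together, 14.8% were called in MM.1S TSW and 33.3% in RPMI8226 TSW, beside 10.6% and 32.5% of all genes tested.

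Among regulators of NRF2 and BACH1, 2 of 17 tested rose in MM.1S TSW and 0 fell, 11.8% beside 10.6% of all genes, and 2 rose and 1 fell in CO, 17.6% beside 11.8%. In RPMI8226 TSW 4 of 16 rose and 4 fell, 50% beside 32.5%, and in CO 4 rose and 5 fell, 56.2% beside 39.3%. NFE2L1, a relative of NRF2 that controls proteasome genes, was at 51.7, 52.2 and 47.5 RPKM in MM.1S MONO, 119, 137 and 118 in TSW, and 105, 100.5 and 97.3 in CO, and at 41.2 and 38.7 in RPMI8226 MONO, 175 and 144 in TSW, and 201 and 153 in CO. It rose in both lines, by 1.29 (SE 0.09, adjusted p = 3.31e-06, limma) in MM.1S TSW and 1.96 (SE 0.13, adjusted p = 4.06e-07, limma) in RPMI8226 TSW. MAFF, a small MAF partner, rose from a mean of 2.43 to 5.27 and 5.15 RPKM in MM.1S TSW and CO and from 0.953 to 4.13 and 5.09 RPKM in RPMI8226, by 1.39 (adjusted p = 8.5e-07, limma) in RPMI8226 TSW. MAFG was not called in either line, with differences from MONO of 0.13 and 0.18 in MM.1S and 0.37 in both RPMI8226 cocultures. NFE2L3 rose in RPMI8226, from 18.5 to 39.7 and 49.2 RPKM. SQSTM1, an autophagy receptor that binds KEAP1, was at means of 105, 146 and 138 RPKM in MM.1S and 94.3, 116 and 94.6 RPKM in RPMI8226 MONO, TSW and CO and was not called. DPP3, AMER1 and PGAM5, proteins that bind KEAP1, fell in RPMI8226 CO by 0.98, 1.36 and 1.43. DPP3 was also called lower in MM.1S CO (-0.60), a call lost without MONO 2 (-0.55), without CO 1 (-0.50) and with the length trend removed (-0.57), and its call in RPMI8226 TSW (-0.59) was lost with median-of-ratios scaling (-0.51), with quantile normalization (-0.53), with the length trend removed (-0.48), without MONO 2 (-0.54) and without TSW 1 (-0.49). SYVN1, a ubiquitin ligase of the endoplasmic reticulum, rose by 0.68 and 0.67 in RPMI8226 TSW and CO, and MAFK fell by 0.84 in CO.

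In glutathione synthesis and use, 3 of 21 tested rose and 0 fell in MM.1S TSW (14.3%, beside 10.6% of all genes), and 2 rose and 0 fell in CO (9.52%, beside 11.8%). In RPMI8226 4 of 23 rose and 6 fell in TSW (43.5%, beside 32.5%), and 3 rose and 8 fell in CO (47.8%, beside 39.3%). CHAC1, which degrades glutathione, was at 1.85, 3.73 and 2.66 RPKM in MM.1S MONO, 42.7, 43.8 and 42.2 in TSW, and 22.3, 27.7 and 24.9 in CO. In RPMI8226 it was at 0.514 and 0.390 RPKM in MONO, 14.6 and 10.6 in TSW, and 12.5 and 9.82 in CO. Every coculture library was above every MONO library, and the rise in TSW was 3.58 (SE 0.16, adjusted p = 1.22e-07, limma) in MM.1S and 3.21 (SE 0.15, adjusted p = 4.43e-08, limma) in RPMI8226. SLC7A11, the cystine importer that feeds glutathione synthesis and is an NRF2 and ATF4 target, had mean levels of 1.04, 6.23 and 6.60 RPKM in MM.1S and 1.39, 3.61 and 4.30 RPKM in RPMI8226 MONO, TSW and CO, and rose by 1.83 (SE 0.12, adjusted p = 2.74e-06, limma) in MM.1S TSW and 0.93 (SE 0.16, adjusted p = 0.000431, limma) in RPMI8226 TSW. Its partner chain SLC3A2 rose in TSW of both lines, by 0.96 and 0.67. So the cystine importer was higher in RPMI8226 cocultures in which GCLC, GCLM and HMOX1 were lower. GSR, glutathione reductase, fell in RPMI8226 from 44.6 to 24.6 and 21.7 RPKM (by 0.83 on the log2 scale in TSW) and was not called in MM.1S, at 58.1, 56.3 and 51.8 RPKM. MGST1, a membrane glutathione transferase, fell in RPMI8226 by 1.07 and 1.22, as did ABCC4 by 1.22 and 1.39 and CHAC2 by 1.25 and 1.42. GGT1, which cleaves extracellular glutathione, was at 29.6 and 29.4 RPKM in RPMI8226 MONO, 44.3 and 52.3 in TSW, and 75.7 and 77.9 in CO, and it rose by 0.66 (adjusted p = 0.000635, limma) from TSW to CO, a call lost without RPMI8226 TSW 1 (0.54). GSTP1, the most abundant gene of this list in MM.1S, was at a mean of 904, 758 and 651 RPKM there and below 1 RPKM in RPMI8226 MONO and TSW.

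Of the thioredoxin and peroxiredoxin genes, 2 of 18 tested rose and 1 fell in MM.1S TSW (16.7%, beside 10.6% of all genes), and 2 rose and 0 fell in CO (11.1%, beside 11.8%). In RPMI8226 4 of 16 rose and 1 fell in TSW (31.2%, beside 32.5%), and 4 rose and 3 fell in CO (43.8%, beside 39.3%). TXNIP, the inhibitor that binds thioredoxin, was at means of 29.5, 64.5 and 69.7 RPKM in MM.1S MONO, TSW and CO and 31.8, 196 and 290.4 RPKM in RPMI8226. It rose by 2.58 (adjusted p = 8.15e-09, limma) in RPMI8226 TSW and by 1.11 (adjusted p = 7.32e-06, limma) in MM.1S TSW. SESN2, a stress-induced sestrin, rose in MM.1S from 8.20 to 26.2 and 20.6 RPKM and in RPMI8226 from 4.74 to 25.9 and 23.7 RPKM. PRDX1, a peroxide-reducing NRF2 target, was at 268 and 271 RPKM in RPMI8226 MONO, 163 and 181 in TSW, and 126 and 127 in CO; it fell by 1.09 in CO (adjusted p = 2.76e-07, limma), and its call in TSW (-0.65) was lost with median-of-ratios scaling (-0.57), with the length trend removed (-0.54) and without TSW 1 (-0.57). TXN, thioredoxin itself, fell in RPMI8226 CO by 0.77, from 313 to 184 RPKM, but by 0.43 with no call after the length trend was removed. PRDX5 rose in RPMI8226, from 341 to 590.2 and 518 RPKM, the call in CO (0.60) being lost after quantile normalization (0.58) and without CO 1 (0.56). In MM.1S neither PRDX1 nor TXN was called. MSRB3, which fell by 0.59 in MM.1S TSW, lost its call without MONO 2 (-0.47), MONO 3 (-0.58) or TSW 2 (-0.49). PETs of TXN, with 7 pseudogenes named after it, and of PRDX1, with 1, can be shared with the copies, so these levels are uncertain.

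NADPH, which thioredoxin reductase, glutathione reductase and NQO1 all spend, is the subject of a list of 13 genes, which has enzymes that make it and others of the pentose phosphate pathway that do not, such as TKT, RPIA and PGLS. In MM.1S 3 of 13 rose and 2 fell in TSW and in CO, and in RPMI8226 0 rose and 3 fell in TSW and 4 in CO. The shares were 38.5% in both MM.1S comparisons, beside 10.6% and 11.8% of all genes, and 23.1% and 30.8% in RPMI8226, beside 32.5% and 39.3%. Malic enzyme ME1, whose promoter is shown above, was at 16.9, 17.3 and 20.0 RPKM in MM.1S MONO, 38.8, 34.5 and 35.9 in TSW, and 37.0, 36.2 and 35.7 in CO. In RPMI8226, ME1 was at 23.8 and 21.5 RPKM in MONO, 21.2 and 18.6 in TSW, and 20.8 and 19.2 in CO. ME1 rose in both MM.1S cocultures by 0.97 (SE 0.09, adjusted p = 2.62e-05 in TSW, limma) and was not called in RPMI8226. IDH1 and IDH2, the NADP-dependent isocitrate dehydrogenases, rose in MM.1S TSW by 1.03 and 0.88. PGD, an oxidative enzyme of the pentose phosphate pathway, fell in RPMI8226 from 253 to 140.3 and 125 RPKM (-0.85 and -1.01), TKT fell in RPMI8226 CO by 0.89, and RPIA fell in both lines, by 0.80 in MM.1S TSW and 0.91 in RPMI8226 TSW. PGLS fell in MM.1S by 0.67 and 0.71, the call in TSW being lost without MM.1S MONO 1 (-0.56).

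Among 23 heme and iron genes tested in MM.1S, 3 rose in TSW and 2 in CO with 0 lower, and among 22 in RPMI8226, 1 rose and 5 fell in TSW, and 0 rose and 8 fell in CO. The shares, 13.0% and 8.70% in MM.1S and 27.3% and 36.4% in RPMI8226, were near or below those of all genes, 10.6%, 11.8%, 32.5% and 39.3%. Ferritin stores the iron that heme oxygenase frees. Its heavy chain FTH1 was at 141, 100.1 and 105 RPKM in MM.1S MONO, 333, 269.9 and 263 in TSW, and 318, 364 and 338 in CO, and at 1206 and 1247 in RPMI8226 MONO, 845 and 825 in TSW, and 938 and 795 in CO. FTH1 rose in MM.1S by 1.32 in TSW (SE 0.14, adjusted p = 8.39e-05, limma) and 1.57 in CO, and the differences of -0.55 and -0.51 in RPMI8226 were under the fold threshold, the second being -0.19 with the length trend removed. The light chain FTL was at means of 1811, 4312 and 3637 RPKM in MM.1S MONO, TSW and CO and 2428, 2116 and 1577 RPKM in RPMI8226, rising by 1.26 in MM.1S TSW and called lower in RPMI8226 CO (-0.62), but not after median-of-ratios scaling (-0.51) or with the length trend removed (-0.29). The ferritin chains and HMOX1 thus lay above MONO in the MM.1S cocultures and below it in those of RPMI8226, also under each scaling tried. FTH1 and FTL have 27 and 20 pseudogenes named after them, so their PETs can be split with near-identical copies. FTH1P3, looked at after its values were seen, was at 22.4 and 23.5 RPKM in RPMI8226 TSW and at 2.75 RPKM or less in the other libraries. The sum of FTH1 and FTH1P3 had means of 1228, 858 and 867 RPKM in RPMI8226 MONO, TSW and CO. Another pseudogene, RPS14P3, was at 94.8 and 93.6 RPKM in RPMI8226 TSW and at 84.2 RPKM in MM.1S MONO 2. In the other libraries RPS14P3 was at 2.20 to 6.44 RPKM, and why these libraries stood apart was not tested. TFRC, the transferrin receptor, was at 151 and 145 RPKM in RPMI8226 MONO, 55.0 and 50.9 in TSW, and 38.2 and 39.4 in CO, a fall of 1.47 and 1.90 (adjusted p = 5.21e-08 and 6.93e-09, limma), and it was not called in MM.1S. BLVRB, a biliverdin reductase, rose in TSW of both lines, by 0.90 and 1.12. HMOX2, the constitutive heme oxygenase, fell in RPMI8226 from 26.9 to 16.4 and 12.5 RPKM (-0.68 and -1.05), the call in TSW being lost after the length trend was removed (-0.57). FLVCR1, a heme exporter, fell in RPMI8226 by 1.09 and 0.99.

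Of 15 detoxification genes tested in MM.1S, 1 was called in TSW (6.67%, beside 10.6% of all genes) and 0 in CO by limma (0%, beside 11.8%), where 5 had an unadjusted p under 0.05 and voom on the recovered PETs called 1. Of 16 in RPMI8226, 1 rose and 3 fell in TSW, and 1 rose and 6 fell in CO, 25% and 43.8% beside 32.5% and 39.3% of all genes. CBR1, a carbonyl reductase, rose by 0.62 in MM.1S TSW (adjusted p = 0.00203, limma), but the call was lost without MONO 3 (0.54) and without TSW 1 (0.55). AKR1C3, an aldo-keto reductase, fell in RPMI8226 by 1.22 and 1.11, and PIR, a cupin protein, fell by 0.79 and 1.28, while ABHD4 rose by 0.67 and 0.79, with no call in TSW without MONO 1 (0.55). NQO2 and CBR3 fell in RPMI8226 CO, by 0.95 and 0.98. AKR1B1, the most abundant of the list, was not called.

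In superoxide and peroxide removal, limma called 0 of 8 tested in MM.1S TSW, as did voom, with an unadjusted p under 0.05 for 4, beside 10.6% of all genes called, and 1 rose in CO, 12.5% beside 11.8%. In RPMI8226 2 fell in TSW, and 1 rose and 2 fell in CO, 25% and 37.5% beside 32.5% and 39.3% of all genes. SOD2, the mitochondrial superoxide dismutase, was at 19.9, 24.9 and 24.5 RPKM in MM.1S MONO, 26.5, 26.9 and 27.5 in TSW, and 40.0, 41.4 and 41.5 in CO. In RPMI8226 it was at 52.2 and 51.9 RPKM in MONO, 29.2 and 28.0 in TSW, and 39.7 and 46.0 in CO. SOD2 was higher in CO than in TSW by 14.0 RPKM in MM.1S and 14.3 RPKM in RPMI8226, in the libraries that carried stromal transcripts, whose part was not tested. It was the list gene called between CO and TSW in MM.1S (0.59, SE 0.10, adjusted p = 0.0232, limma), and the call was lost when genes under a mean of 5 RPKM were left out, after median-of-ratios scaling and with the length trend removed, or without any 1 of the TSW or CO libraries, although the difference itself stayed at 0.57 to 0.64. In RPMI8226 it fell by 0.84 in TSW. SOD1 fell by 0.70 in RPMI8226 CO, and by 0.37 with no call after the length trend was removed, and AIFM2, an NADPH-linked quinone reductase, fell by 0.86 and 1.09.

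Between CO and TSW, limma called 1 of 115 list genes in MM.1S, with an unadjusted p under 0.05 for 10, and 2 of 114 in RPMI8226, GGT1 among them, with an unadjusted p under 0.05 for 61. The counts were 0.870% and 1.75%, beside 0.414% and 4.29% of all genes. In RPMI8226 the split of 1 higher and 1 lower became 3 and 1 after median-of-ratios scaling or with the length trend removed and 3 and 2 after quantile normalization, but 1 and 3 with log2(RPKM + 0.1), 1 and 4 with voom, 2 and 4 without TSW 1, 2 and 5 without CO 2, and 4 and 43 with no fold change threshold; in MM.1S quantile normalization gave 1 and 1.

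**Figure D5:**
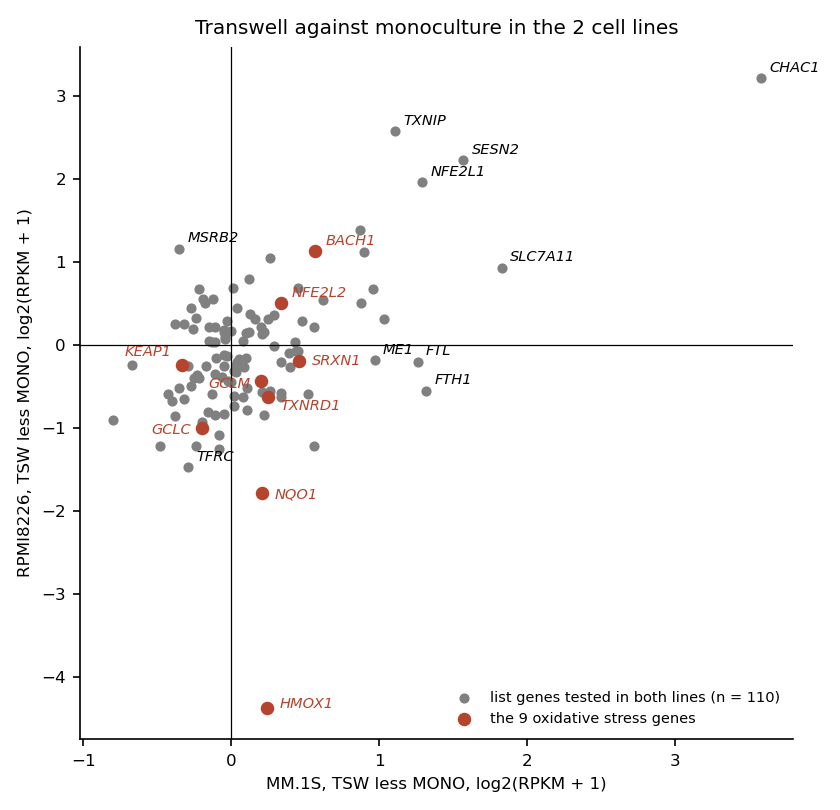
Difference of log2(RPKM + 1) between TSW and MONO in MM.1S (x axis) and RPMI8226 (y axis) for the 9 genes (red) and 110 list genes tested in both lines (grey). CHAC1 lay at 3.58 and 3.21, SESN2 at 1.57 and 2.23, and HMOX1 at 0.24 and -4.37.

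The genes whose pattern was nearest to that of HMOX1 were sought among 9397 genes with a mean of at least 1 RPKM in both lines, by the root mean square difference over the 15 libraries of log2(RPKM + 1) less the MONO mean of the line. The nearest were IGLV6-57 (1.03), FRMD3 (1.09), KRT15 (1.24), MPI (1.24) and CGN (1.26), where a gene with no difference from MONO would have 2.38 and the median gene had 2.35. FRMD3 was at means of 23.2, 3.24 and 3.16 RPKM in RPMI8226 MONO, TSW and CO and at 0.967, 1.07 and 1.51 RPKM in MM.1S. MPI, mannose phosphate isomerase, was at means of 19.9, 3.67 and 3.28 RPKM in RPMI8226 and 12.9, 17.2 and 15.6 RPKM in MM.1S. The fall in RPMI8226 makes up most of the pattern by which they were chosen, and MM.1S did not match in all: KRT15 was at means of 1.16 and 1.09 RPKM and CGN at 2.15 and 2.07 RPKM in MM.1S MONO and TSW. In MM.1S CO, KRT15 was at 1.75 to 2.15 RPKM, above every MONO library as HMOX1 was, and CGN at 2.30 RPKM overlapped with MONO. IGLV6-57 rested on 2 to 7 PETs in the RPMI8226 cocultures. No oxidative stress gene of the lists was among these 5.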

How the data were processed

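The deposited tables hold, per gene and library, values that the authors placed on a log2 scale, log2(RPKM + 1) with 0.0001 added, although RPKM had been assumed when the design was written; the offset was removed. The submitters' processing notes name Subread, featureCounts and hg38. The 9 genes and the 7 lists were chosen with earlier results of these data known. Whole PETs were worked out from the steps between low values, setting each total so that transcript lengths came out as whole bases within 0.05 base (100.0% of genes under 3000 bases, beside a median of 9.99% over other totals); 100.0% of 16414 genes gave whole PETs. limma 3.58.1 (R 4.3.3) was fitted to log2(RPKM + 1) per line with MONO, TSW and CO together, with a trended prior and Benjamini-Hochberg adjustment, and was tested on simulated data. List genes selected for naming were, per list and comparison, the called genes without overlap, up to the 4 largest rises and 4 largest falls, the most abundant gene of each list and 12 genes taken whatever their values; not all of them are reported. Alternatives changed the pseudocount, the filter, the scaling, the fit, the threshold or the libraries, or used voom on PETs; removing a length trend and leaving out genes with named pseudogenes were chosen after seeing the data. Figures were drawn with matplotlib 3.10.9.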

Additional observations from a re-analysis of the deposited data

Results flagged for a closer look

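The values here are differences of log2(RPKM + 1) of genes for which every library of one condition lay on one side of the other condition in MM.1S and on the opposite side in RPMI8226. Each gives the difference in MM.1S less that in RPMI8226, and the difference between the lines was not tested. The share of all genes tested with such an opposite order is not given here. Several of the list genes were not called in both lines. For HMOX1 it was 4.61 in TSW against MONO (0.24 and -4.37), 5.75 in CO against MONO (1.11 and -4.63) and 1.14 in CO against TSW (0.87 and -0.27, the latter -0.10 with a length trend removed). Among the other genes chosen on these values, it was 1.99 for NQO1 in TSW, 0.63 for GCLM in CO, 0.87 and 1.14 for TXNRD1 in TSW and CO, and 0.65 for SRXN1 in TSW, all against MONO. The MM.1S differences of TXNRD1 were only 0.08 and 0.16 without MM.1S MONO 1. That of SRXN1 in RPMI8226 TSW was -0.07 with the length trend removed. Of the list genes, FTH1 gave 1.88 in TSW and 2.07 in CO, and FTL gave 1.46 and 1.64. ME1 gave 1.15 and 1.14, and ME2, with 0.52 and 0.56 in MM.1S and -0.59 and -0.81 in RPMI8226, gave 1.10 and 1.38. The RPMI8226 differences of ME1, -0.18 and -0.17, were not called. The call of ME2 in RPMI8226 TSW was lost with median-of-ratios scaling (-0.51) and in other settings. AKR1C3 gave 1.78 in TSW and 1.60 in CO, FECH gave 0.97 in both, SOD2 gave 1.06 and 1.09, and NQO2 gave 0.93 in TSW. The opposite order, lower in MM.1S and higher in RPMI8226, was found for MSRB2, at -1.51 in TSW and -1.16 in CO, and for ABHD4, at -1.11 in CO. ABCC4 gave 0.35 in CO against TSW, from 0.18 in MM.1S and -0.16 in RPMI8226, both under the fold threshold.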

How the results depend on the processing

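Where a value changed with the processing, the cause was not tested. Of the list genes called in MM.1S, 17 in TSW against MONO became 34 with no fold change threshold and 16 to 18 with each library left out in turn. The 15 in CO against MONO became 41 with no fold change threshold, 9 of 77 tested without genes that have a named pseudogene, and 15 to 24 with each library left out, 24 being without MONO 3. The 1 in CO against TSW became 0 with genes under a mean of 5 RPKM left out, with median-of-ratios scaling, with the length trend removed or with the pseudogene-named genes left out (limma; unadjusted p under 0.05 for 9, 9, 11 and 5 genes), 2 with quantile normalization, only 2 conditions in the fit or voom on PETs, and 0 to 2 with each library left out. In RPMI8226, 38 in TSW against MONO became 85 with no fold change threshold, 25 of 76 without pseudogene-named genes and 35 to 41 with each library left out; 49 in CO against MONO became 86 with no fold change threshold and 49 to 50. The 2 in CO against TSW became 4 with log2(RPKM + 0.1), median-of-ratios scaling or the length trend removed, 5 with quantile normalization or voom, 47 with no fold change threshold, and 2 to 7 with each library left out (6 without TSW 1, 7 without CO 2). Where a lone RPMI8226 library remained, it was assumed to vary like the others. With the replicate number as a block, the counts were 17, 15, 1, 38, 49 and 2, as without it. In MM.1S, libraries of the same number did not deviate together in all pairs of conditions (correlations of -0.38 to 0.286). Between MM.1S MONO and TSW the correlations were all positive, at 0.197, 0.066 and 0.286. RPMI8226 has only 2 numbers (0.164 to 0.271). Of 945 recomputed differences of the 9 genes, 86 moved by at least 1 replicate SD and 8 changed sign, those of NQO1 in MM.1S CO against TSW and GCLC in RPMI8226 CO against TSW, both near 0. Of 111 changes of list genes selected for naming, 90 were called in every alternative in which the gene was tested, and 0 of 1851 recomputed values reversed. Genes under a mean of 5 RPKM were not tested with that filter. No limit of detection was worked out.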
